A study of Mus musculus with 6 samples.

Results

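The BCL2 family holds the proteins that keep a cell's mitochondria intact or break them open, and 10 of its genes were followed here in germinal centre B cells that lacked the SLAM family receptors. They were chosen by gene symbol from the 55421 genes of the deposited table, and all 10 were found. They comprise 4 pro-survival genes (Mcl1, Bcl2, Bcl2l1 and Bcl2a1b), 2 effectors (Bax and Bak1) and 4 genes of BH3-only proteins (Bcl2l11, Bbc3, Pmaip1 and Bad). RNA-seq was done on 3 SFR KO and 3 wildtype libraries of spleen cells from C57BL/6 mice. SFR KO mice carry a deletion that starts inside Cd244, ends inside Slamf6 and takes out Slamf1, Slamf7, Cd48, Cd84 and Ly9 between them. Both groups were AID-GFP reporter mice, in which green fluorescent protein marks germinal centre B cells. Both were immunised with NP(18)OVA, a protein carrying the hapten NP, together with alum, and GFP+ splenocytes were sorted on day 9. The sources used here do not state sex, age, any further gate, or whether each library is its own mouse. The p-values therefore measure the spread among these libraries, which may be technical.

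In healthy cells the pro-survival proteins hold the effectors BAX and BAK in check. BH3-only proteins, made or activated under stress, occupy the pro-survival proteins or switch on the effectors, which then perforate the outer mitochondrial membrane and release cytochrome c to start the caspases. Germinal centre B cells are known for a low supply of BCL2, whose gene is repressed by BCL6, for their dependence on MCL1, and for high turnover when T cell help is missing.

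Libraries held 28269310 to 33053024 reads assigned to genes. The genes of the deletion summed to 5.47 to 16.8 normalized reads in SFR KO and 10457 to 20669 in wildtype libraries, in keeping with the labels. Germinal centre identity was measured on 9 genes, all detected. Bcl6, the gene of the repressor that defines these cells, had 13496 to 14235 normalized reads in SFR KO and 14732 to 16046 in wildtype libraries. Transcripts listed as markers of other cells were also present, and no marker list had a gene at 0 in all 6 libraries. Which cells made these transcripts was not tested. Follicular B cell markers (8 genes) summed to 10576 to 18410 normalized reads in SFR KO and 15278 to 19039 in wildtype libraries. T cell markers (10 genes) summed to 4945 to 7049 in SFR KO and 4421 to 4825 in wildtype libraries, without overlap. Lck gave most of that sum, and the other 9 genes overlapped at 893 to 1051 in SFR KO and 495 to 1028 in wildtype libraries. Taken singly, 8 of the 10 genes were above 0 in log2 difference and 2 below, and limma called 0. Groups did not overlap for 3 of the 10 (Cd3e, Cd3d and Trac, all higher in SFR KO), beside 21.7% of all tested genes. Plasma cell markers (7 genes) summed to 34246 to 35143 in SFR KO and 31331 to 32000 in wildtype libraries, also without overlap. Jchain gave most of that sum, and the other 6 genes overlapped at 8512 to 9638 in SFR KO and 8825 to 9126 in wildtype libraries. Of the 6 plasma cell markers tested, 3 were above 0 in log2 difference and 3 below. Limma called 0 of them and DESeq2 called 1, Jchain (log2 0.18, DESeq2 adjusted p = 0.0104). Single-gene groups did not overlap for 2 of the 6, Jchain (higher in SFR KO) and Sdc1 (lower, log2 -0.59). Neutrophil and macrophage markers (10 genes) summed to 892 to 2690 in SFR KO and 1162 to 5298 in wildtype libraries. Erythroid markers (7 genes) summed to 1663 to 4435 in SFR KO and 1543 to 8887 in wildtype libraries. Wildtype 1 had the highest sum of both, and SFR KO 1 the highest among the SFR KO libraries. Transcripts of the mitochondrial genome summed to 757053 to 760973 in SFR KO and 463408 to 660682 in wildtype libraries, without overlap, and limma called 2 of 8 tested, both higher in SFR KO. The part of these RNAs in the member values was not tested. In bulk RNA, fewer cells of a type and less RNA per cell cannot be told apart.

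None of the 10 members differed between SFR KO and wildtype libraries past the threshold. The threshold was a Benjamini-Hochberg adjusted p under 0.05 from limma over 13562 tested genes, and 0.465% of those genes passed it (0.155% higher and 0.31% lower in SFR KO). That share rests on 63 genes. Without SFR KO 1 the count was 501, and without any other library it was 11 to 26. The count of members was 0 in each of those fits. By edgeR and DESeq2 it was also 0, where these called 0.221% and 4.53% of the genes they tested. No member had an unadjusted p under 0.05, which 16.1% of tested genes had. Adjusted p-values ran from 0.358 for Mcl1 to 0.932 for Bcl2a1b. The fitted log2 difference, SFR KO minus wildtype, was above 0 for 3 members and below 0 for 7. Its median was -0.05 over the members and -0.003 over all tested genes.

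Levels within the family spanned a wide range. To compare genes, normalized reads were divided by the length of the longest annotated transcript in kilobases. Mcl1, the pro-survival gene on which germinal centre B cells depend, stood highest, at 6463 ± 83.5 normalized reads per kilobase in SFR KO and 6054 ± 171 in wildtype libraries (mean ± SD, n = 3 each). The effector genes came next. Bak1 was at 2722 ± 38.2 in SFR KO and 2763 ± 208 in wildtype libraries, and Bax at 1381 ± 153 in SFR KO and 1297 ± 42.8 in wildtype libraries, on the same scale. For none of these 3 did the range over the 6 libraries touch that of the next gene in the order.

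**Figure D1:**
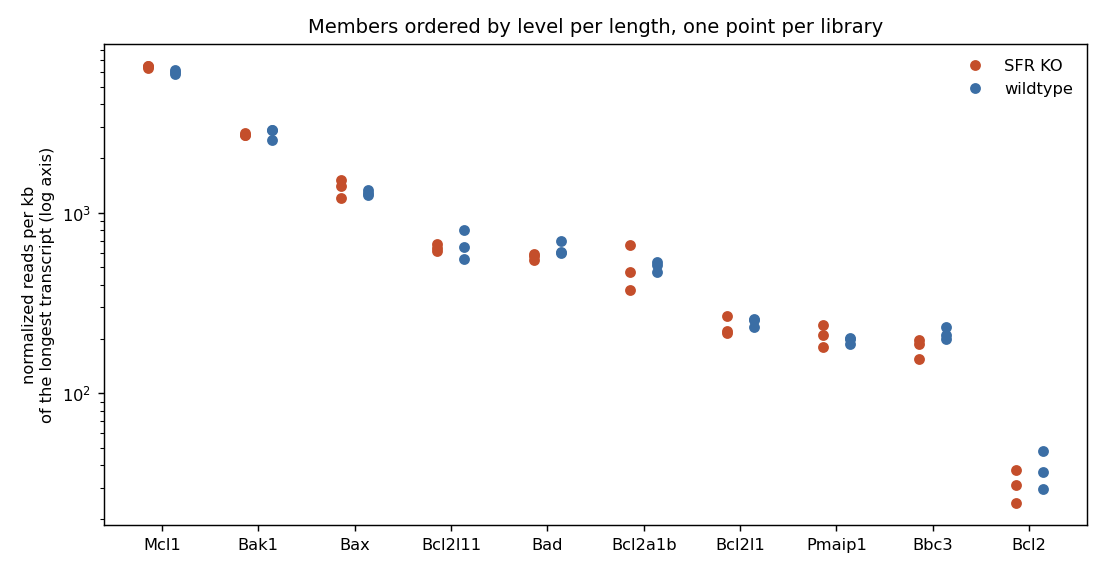
Normalized reads per kilobase of the longest transcript (y axis, log scale) for the 10 members (x axis), with 1 point per library, SFR KO left of wildtype. Mcl1 lies highest at 5878 to 6521, and Bcl2 lowest at 24.7 to 48.2.

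Below them Bcl2l11, Bad and Bcl2a1b had ranges that overlapped from neighbour to neighbour, with means over the 6 libraries of 656, 603 and 505 normalized reads per kilobase. Bcl2l1, Pmaip1 and Bbc3 formed a further run of overlapping ranges, at 243, 204 and 197. Bcl2 was lowest at 31.2 ± 6.58 in SFR KO and 38.2 ± 9.36 in wildtype libraries, and its range lay below that of all the others. Of the summed level per kilobase of the 4 pro-survival members, Mcl1 gave 87.4%, 90.0% and 90.7% in SFR KO 1, 2 and 3. In wildtype 1, 2 and 3 it gave 88.2%, 87.9% and 89.2%. Bcl2a1a and Bcl2a1d, copies of Bcl2a1b described below, were not in that sum. Bak1 exceeded Bax 1.99 ± 0.229 times per kilobase in SFR KO and 2.13 ± 0.117 times in wildtype libraries (SD, n = 3 each), with overlap. Levels per kilobase depend on which transcript is used, and which is made in these cells was not measured. With the merged exons of all transcripts as the length, Mcl1, Bak1 and Bax stayed at the top and Bcl2 at the bottom. Bcl2a1b then came before Bcl2l11 and Bad, and Bcl2l1 after Pmaip1 and Bbc3.

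Among the pro-survival genes, Mcl1 (chromosome 3, 95658788 to 95663176, plus strand, GRCm38) had 21764, 22222 and 22288 normalized reads in SFR KO 1, 2 and 3, against 21256, 20090 and 20729 in wildtype 1, 2 and 3. Every SFR KO library lay above every wildtype library, by a small margin. The fold of SFR KO over wildtype was 1.07, with a 95% limma interval of 0.994 to 1.15 (log2 0.09 ± 0.05 SE, adjusted p = 0.358). Mcl1 also varied least among the members, with a coefficient of variation of 1.29% in SFR KO and 2.82% in wildtype libraries.

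**Figure D2:**
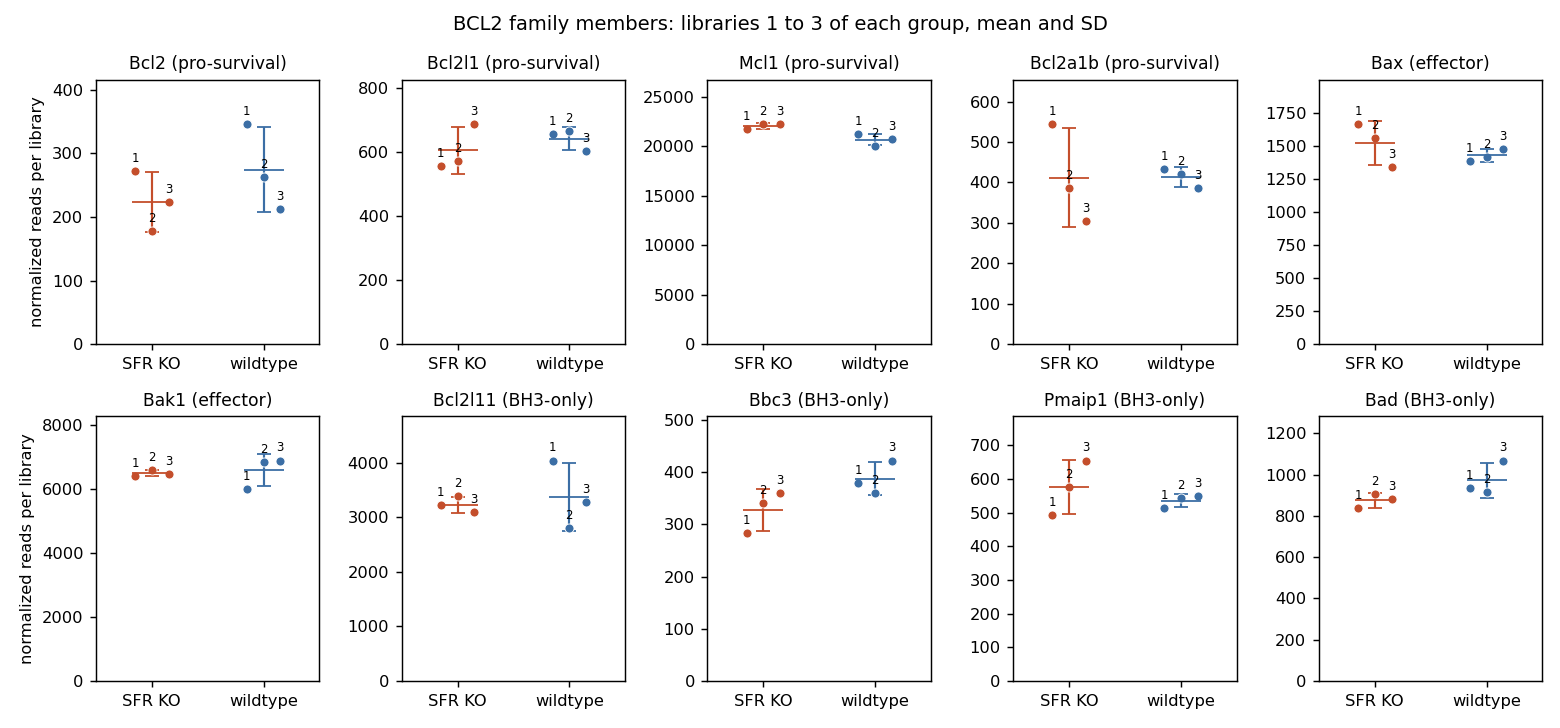
Normalized reads (y axis, from 0) of each member in libraries 1 to 3 of SFR KO (left) and wildtype (right), with the group mean (line) and SD (whiskers). The points of the 2 groups are apart for Mcl1, Bbc3 and Bad and overlap for the other 7 members.

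Bcl2 (chromosome 1, 106538178 to 106714274, minus strand), the founding pro-survival gene, had 272, 177 and 223 normalized reads in SFR KO 1, 2 and 3, against 347, 264 and 213 in wildtype 1, 2 and 3. The groups overlapped, since SFR KO 1 lay above wildtype 2 and 3. The fold was 0.821 (95% interval 0.596 to 1.13; log2 -0.28 ± 0.21, limma adjusted p = 0.545), the largest fitted difference of the 10 members and, on the log2 scale, the widest interval. Leaving out wildtype 1 brought the log2 difference to -0.10, and leaving out SFR KO 2 to -0.13. Leaving out wildtype 3 or SFR KO 1 brought it to -0.45 and -0.43. Follicular B cell markers, which mark resting B cells in which Bcl2 is known to be high, summed to 18410, 10576 and 10587 normalized reads in SFR KO 1, 2 and 3 and to 19039, 18868 and 15278 in wildtype 1, 2 and 3. SFR KO 1 was thus the highest SFR KO library, and wildtype 1 the highest wildtype library, for both measures. The order differed elsewhere, since SFR KO 3 lay above wildtype 3 for Bcl2 and below it for the markers. Of the 8 markers, 7 were below 0 in log2 difference and 1 above. That 1 was Cd38, with 1583 to 1875 normalized reads in SFR KO and 1004 to 1357 in wildtype libraries. Its log2 difference was 0.56 ± 0.11 (limma adjusted p = 0.0659, DESeq2 adjusted p = 0.00018). Limma called 0 of the 8 markers and DESeq2 called 1, Cd38, beside 4.53% of all genes it tested. The part of follicular B cells in the Bcl2 values was not tested. An RNA gene on the opposite strand, D630008O14Rik, shares exon bases with Bcl2 and had at most 4.10 normalized reads.

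Bcl2l1 (chromosome 2, 152780668 to 152831728, minus strand) encodes BCL-XL, a further pro-survival protein. It had 556, 570 and 687 normalized reads in SFR KO 1, 2 and 3, against 657, 666 and 601 in wildtype 1, 2 and 3. The groups overlapped, with SFR KO 3 the highest of all and SFR KO 1 and 2 the lowest. The fold was 0.939 (95% interval 0.804 to 1.10, limma adjusted p = 0.717).

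Bcl2a1b (chromosome 9, 89199209 to 89207827, plus strand) encodes A1, a pro-survival protein induced by NF-kB, and has near-identical copies nearby on the same chromosome. Its coding sequence of 516 bases differs from that of Bcl2a1d at 6 positions and from that of Bcl2a1a at 11. The opening 60 coding bases (GENCODE M21 transcripts) are shown to let the copies be compared, with capitals at the 6 positions where any of the copies differ:
Bcl2a1b: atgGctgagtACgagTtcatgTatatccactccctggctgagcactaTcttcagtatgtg
Bcl2a1a: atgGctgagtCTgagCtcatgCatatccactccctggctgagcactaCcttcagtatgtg
Bcl2a1d: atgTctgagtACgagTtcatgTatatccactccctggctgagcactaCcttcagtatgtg
Of the 768 windows of 50 bases in the Bcl2a1b transcript, 79.2% occur unaltered in a transcript of another gene. The sources used here do not state how reads with several matches were counted, which leaves the value of each copy uncertain.

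Bcl2a1b had 545, 386 and 304 normalized reads in SFR KO 1, 2 and 3, against 434, 422 and 386 in wildtype 1, 2 and 3. The SFR KO libraries lay on both sides of the wildtype range, with a coefficient of variation of 29.7%, against 6.01% in wildtype libraries. The fold was 0.968 (95% interval 0.727 to 1.29, limma adjusted p = 0.932). Bcl2a1d had 315, 193 and 171 normalized reads in SFR KO 1, 2 and 3, against 258, 329 and 188 in wildtype 1, 2 and 3, and Bcl2a1a had 4.38 to 20.7 in SFR KO and 5.13 to 19.3 in wildtype libraries. The 3 copies together had 881, 584 and 487 normalized reads in SFR KO 1, 2 and 3, against 704, 756 and 593 in wildtype 1, 2 and 3. Their log2 difference was -0.11 (two-sided exact permutation p = 0.7, where 0.1 is the smallest p that 3 against 3 libraries allow). Bcl2a1b made up 55.8% to 66.2% of the 3 in every library.

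**Figure D3:**
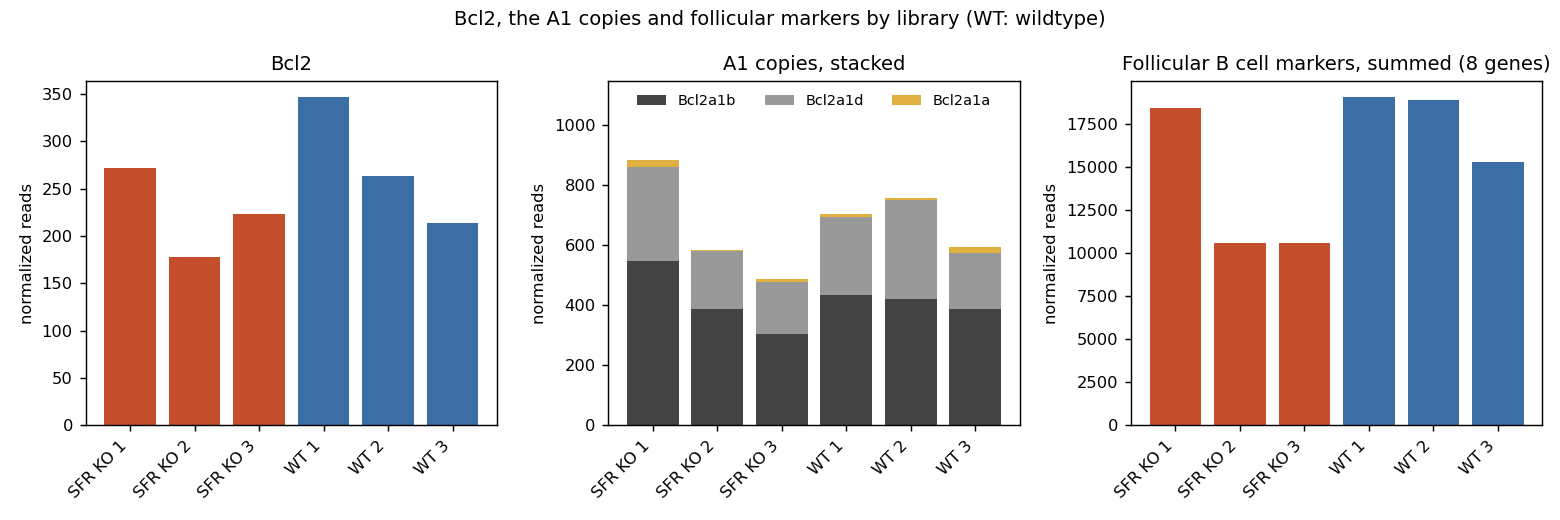
Normalized reads (y axes, from 0) by library, SFR KO left of wildtype (WT), of Bcl2, of the 3 A1 copies stacked, and of 8 follicular B cell markers summed. SFR KO 1 is the highest SFR KO library in all 3 panels, with 272, 881 and 18410 normalized reads.

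Both effector genes overlapped between the groups. Bax (chromosome 7, 45461697 to 45466898, minus strand), whose protein waits in the cytosol until activated, had 1665, 1558 and 1336 normalized reads in SFR KO 1, 2 and 3, against 1385, 1417 and 1478 in wildtype 1, 2 and 3. SFR KO 1 and 2 lay above the wildtype range and SFR KO 3 below it. The fold was 1.06 (95% interval 0.931 to 1.21, limma adjusted p = 0.670). Gm45808, which shares 192 exon bases with Bax on the same strand, had 0 normalized reads in all 6 libraries. How reads over the shared bases were counted is not stated. Bak1 (chromosome 17, 27019810 to 27029009, minus strand), whose protein sits on the mitochondrial membrane, had 6423, 6598 and 6468 normalized reads in SFR KO 1, 2 and 3, against 6022, 6865 and 6900 in wildtype 1, 2 and 3. All SFR KO values fell inside the wildtype range. The fold was 0.987 (95% interval 0.899 to 1.08, limma adjusted p = 0.913). Ggnbp1, which shares exon bases with Bak1 on the opposite strand, had 21.5 to 35.0 normalized reads over the 6 libraries.

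**Figure D4:**
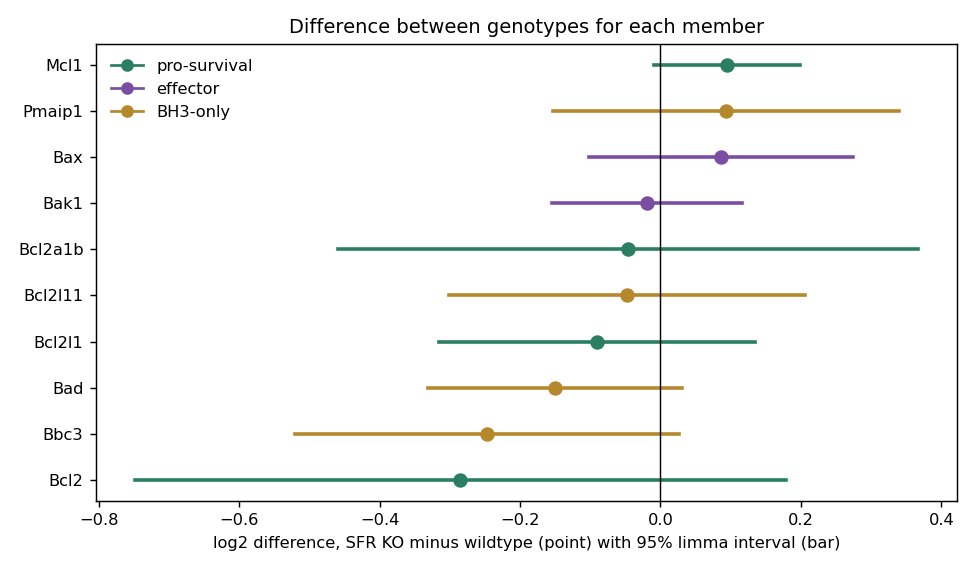
Log2 difference of SFR KO minus wildtype (x axis; point) with its 95% limma interval (bar) for the 10 members, coloured by role. Every interval spans 0, from the narrow one of Mcl1 (-0.01 to 0.20) to the wide one of Bcl2 (-0.75 to 0.18).

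Of the BH3-only genes, Bcl2l11 (chromosome 2, 128126038 to 128162547, plus strand) encodes BIM, which removes self-reactive and cytokine-starved lymphocytes. It was the most abundant of the 4, with 3220, 3385 and 3093 normalized reads in SFR KO 1, 2 and 3, against 4045, 2806 and 3276 in wildtype 1, 2 and 3. The SFR KO values lay within the wildtype range, which wildtype 1 stretched upward. The fold was 0.968 (95% interval 0.812 to 1.15, limma adjusted p = 0.885). Without wildtype 1 the log2 difference turned from -0.05 to 0.09, also short of the threshold (limma adjusted p = 0.664). Neutrophil and macrophage markers were likewise highest in wildtype 1, at 5298 normalized reads, and their part in the Bcl2l11 value was not tested.

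Bbc3 (chromosome 7, 16308393 to 16318205, plus strand) encodes PUMA, a p53 target that binds all pro-survival proteins. It had 283, 340 and 360 normalized reads in SFR KO 1, 2 and 3, against 380, 361 and 423 in wildtype 1, 2 and 3. All SFR KO libraries lay below all wildtype libraries, but SFR KO 3 and wildtype 2 were almost level. The fold was 0.843 (95% interval 0.697 to 1.02; log2 -0.25 ± 0.12, limma adjusted p = 0.364). Without SFR KO 1 the log2 difference was -0.14.

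Bad (chromosome 19, 6941861 to 6951899, plus strand), whose protein is held inactive by phosphorylation under growth factor signals, had 837, 905 and 882 normalized reads in SFR KO 1, 2 and 3, against 936, 914 and 1069 in wildtype 1, 2 and 3. The groups were again apart by little, with SFR KO 2 and wildtype 2 nearest. The fold was 0.901 (95% interval 0.795 to 1.02; log2 -0.15 ± 0.08, limma adjusted p = 0.403). Without wildtype 3 the log2 difference was -0.08. Gpr137, which shares exon bases with Bad on the opposite strand, had 260 to 326 normalized reads in SFR KO and 302 to 318 in wildtype libraries. No strand setting is stated for the counting, and reads of the shared bases cannot be told apart without one.

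Pmaip1 (chromosome 18, 66458533 to 66465565, plus strand) encodes NOXA, which binds MCL1 and A1. It had 494, 577 and 655 normalized reads in SFR KO 1, 2 and 3, against 513, 545 and 549 in wildtype 1, 2 and 3. The groups overlapped, with SFR KO libraries at both ends. The fold was 1.07 (95% interval 0.899 to 1.27, limma adjusted p = 0.732).

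Groups that did not overlap were seen for 3 of 10 members, Mcl1 (higher in SFR KO) and Bbc3 and Bad (lower in SFR KO). Over all tested genes 21.7% had such groups, 9.78% higher and 11.9% lower, so that 3 of 10 is near the background. Ratios within a library were read beside them as descriptions. Per kilobase, Mcl1 exceeded Bbc3 40.8, 34.6 and 32.9 times in SFR KO 1, 2 and 3, and 29.7, 29.5 and 26.0 times in wildtype 1, 2 and 3. These ratios did not overlap between the groups, but they join 2 genes that were apart in opposite directions and were picked after their values were seen. Mcl1 exceeded Bcl2l11 9.96, 9.67 and 10.6 times in SFR KO 1, 2 and 3, and 7.74, 10.5 and 9.32 times in wildtype 1, 2 and 3, with overlapping groups. The summed level of the 4 pro-survival genes per kilobase, most of it from Mcl1, was 7192 to 7289 in SFR KO and 6690 to 7054 in wildtype libraries, without overlap. The summed level of the 4 BH3-only genes per kilobase overlapped, at 1522 to 1662 in SFR KO and 1552 to 1811 in wildtype libraries.

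In the authors' deposited table the adjusted p-values of the members ran from 0.354 for Mcl1 to 0.991 for Bcl2a1b, where 4.8% of genes with an adjusted p were under 0.05. The authors' deposited table gave log2 fold changes of 0.09 for Mcl1, -0.24 for Bbc3, -0.15 for Bad and -0.29 for Bcl2.

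Genes whose pattern over the 6 libraries was most like that of a member were looked up for Bcl2, Mcl1 and Bcl2l11 among 8450 other protein-coding genes. The likeness is Pearson's r of log2 values, which with 6 libraries and so many genes is high for some gene in any case. Bcl2 was closest to Ids (r = 0.992), G6pdx (0.990) and Slc25a46 (0.986). Mcl1 was closest to Tnfaip8 (0.992), Mterf3 (0.992) and G2e3 (0.986). Bcl2l11 was closest to Zfp296 (0.977), Tmem33 (0.953) and Thap1 (0.949).

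Other genes of the mitochondrial death pathway were described on 7 lists with 91 distinct genes, of which 82 could be tested. Limma called 0 of them in either direction, as did edgeR, and DESeq2 called 6, beside 4.53% of all genes it tested. An unadjusted limma p under 0.05 was held by 24.4%, and 25.6% had groups that did not overlap, beside 16.1% and 21.7% of all tested genes. Their median log2 difference was -0.05. By list, an unadjusted limma p under 0.05 was held by 7 of 15 transcriptional regulators and 4 of 7 inhibitors and antagonists. It was held by 3 of 11 further family genes, 2 of 7 death receptor genes and 2 of 13 apoptosome and caspase genes. The post-translational regulators had 2 of 20 and the mitochondrial gate 0 of 9. Without SFR KO 1 limma called 6, of which 2 were higher in SFR KO, Mef2c among them, and 4 were lower, namely Bid, Birc2, Rps6ka1 and Spi1. The call rate over all genes rose in that fit too, to the 501 genes given above.

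**Figure D5:**
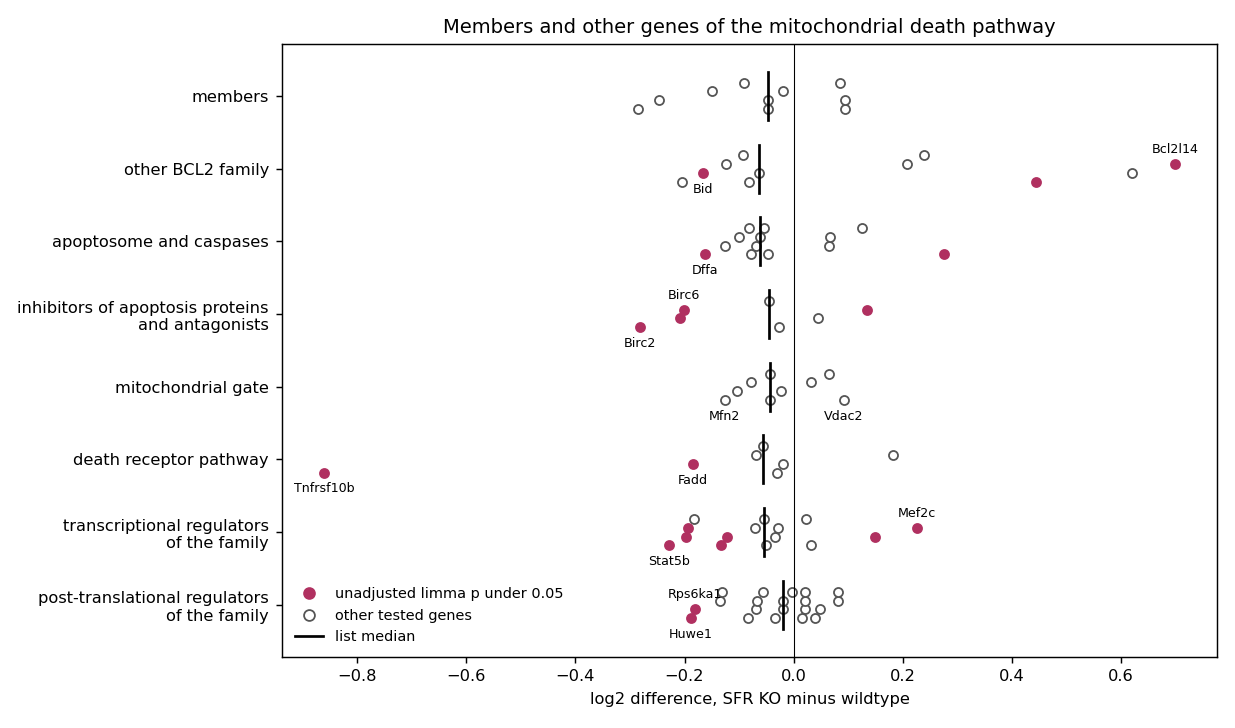
Log2 difference of SFR KO minus wildtype (x axis) of each tested gene, by list (y axis), with the list median as a line and genes with an unadjusted limma p under 0.05 filled. The medians lie between -0.06 and -0.02, and no gene passed the adjusted threshold.

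Of 16 further family genes, 11 were tested and 0 passed. Bid, which links death receptors to the mitochondrion once caspase-8 cuts it, had 4690, 4169 and 4294 normalized reads in SFR KO 1, 2 and 3, against 4873, 4858 and 5007 in wildtype 1, 2 and 3. The groups were apart, with SFR KO 1 closest to wildtype (log2 -0.17 ± 0.06, limma adjusted p = 0.201). Bcl2l14 had 135, 155 and 207 normalized reads in SFR KO 1, 2 and 3, against 77.1, 103 and 127 in wildtype 1, 2 and 3. All SFR KO values lay above the wildtype values (log2 0.70 ± 0.23, adjusted p = 0.193). Bmf, a BH3-only gene of B cells, averaged 1495 ± 364 normalized reads in SFR KO and 1608 ± 201 in wildtype libraries (SD, n = 3 each), with overlap. Hrk and Bcl2l10 had 0 reads in all 6 libraries.

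Of 13 genes of the apoptosome and the caspases, 0 passed. Dffa, the inhibitor of the caspase-activated nuclease, averaged 1733 ± 74.0 in SFR KO and 1941 ± 114 normalized reads in wildtype libraries (limma adjusted p = 0.258).

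The inhibitors of apoptosis proteins and their antagonists had 7 tested genes, of which limma called 0 and DESeq2 called 2, Birc2 and Birc6. Birc2, the gene of cIAP1, a ubiquitin ligase of TNF receptor signalling, had 1514, 1434 and 1316 normalized reads in SFR KO 1, 2 and 3, against 1826, 1734 and 1624 in wildtype 1, 2 and 3. The groups were apart (log2 -0.28 ± 0.07, limma adjusted p = 0.123, DESeq2 adjusted p = 0.0353). Birc6, a large ubiquitin-conjugating member, averaged 12729 ± 740 in SFR KO and 14634 ± 770 normalized reads in wildtype libraries (limma adjusted p = 0.155, DESeq2 adjusted p = 0.0425).

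None of the 9 genes of the mitochondrial gate had an unadjusted p under 0.05. Vdac2, the outer membrane channel that binds BAK, averaged 7531 ± 471 in SFR KO and 7061 ± 212 normalized reads in wildtype libraries (limma adjusted p = 0.468). Mfn2, a mitochondrial fusion gene, averaged 1760 ± 99.2 normalized reads in SFR KO and 1920 ± 71.5 in wildtype libraries (adjusted p = 0.364). In the death receptor pathway 7 genes were tested and 0 passed. Tnfrsf10b, the TRAIL receptor gene, had 40.4, 33.9 and 56.2 normalized reads in SFR KO 1, 2 and 3, against 86.4, 68.7 and 80.2 in wildtype 1, 2 and 3. The groups were apart, at low counts (log2 -0.86 ± 0.25, limma adjusted p = 0.148). Fadd, the adaptor that recruits caspase-8, averaged 940 ± 7.27 in SFR KO and 1069 ± 38.6 normalized reads in wildtype libraries (adjusted p = 0.211).

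Of 15 tested transcriptional regulators of the family, limma called 0 and DESeq2 called 3, Mef2c, Stat5b and Nfkb1. Mef2c, a B cell factor known to act on survival genes, had 21264, 20675 and 21363 normalized reads in SFR KO 1, 2 and 3, against 17964, 18570 and 17594 in wildtype 1, 2 and 3. The SFR KO values were all higher (log2 0.23 ± 0.05, limma adjusted p = 0.0659, DESeq2 adjusted p = 0.000429). Stat5b, a transducer of cytokine signals, averaged 3628 ± 96.9 in SFR KO and 4253 ± 146 normalized reads in wildtype libraries (log2 -0.23 ± 0.05, limma adjusted p = 0.0844, DESeq2 adjusted p = 0.0102). Nfkb1, an NF-kB subunit gene, averaged 6411 ± 359 in SFR KO and 7324 ± 191 normalized reads in wildtype libraries (limma adjusted p = 0.138, DESeq2 adjusted p = 0.0449). Trp53, the gene of p53, which drives Bbc3 and Pmaip1, averaged 6292 ± 136 normalized reads in SFR KO and 6421 ± 233 in wildtype libraries (limma adjusted p = 0.823). Of 20 tested post-translational regulators, limma called 0 and DESeq2 called 1, Rps6ka1. Rps6ka1, a kinase of the group that phosphorylates BAD, had 5174, 4982 and 4946 normalized reads in SFR KO 1, 2 and 3, against 5715, 5727 and 5669 in wildtype 1, 2 and 3, so that the groups were apart (limma adjusted p = 0.112, DESeq2 adjusted p = 0.0350). Huwe1, a ubiquitin ligase of MCL1, averaged 13192 ± 767 normalized reads in SFR KO and 15052 ± 1203 in wildtype libraries (limma adjusted p = 0.221).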

How the data were processed

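The submitters' processing notes name STAR 2.5, featureCounts 1.5, DESeq2 1.14.1 and the build GRCm38, with no annotation or strand setting. The authors deposited gene read counts scaled to library size as a signal, and their mean. The authors also deposited log2 fold changes, standard errors, p-values, adjusted p-values and a score, their test statistic. Dividing by what 1 read was worth in a library gave whole numbers for 100% of values (tolerance 1e-06), and these reads went into edgeR 4.0.16 and DESeq2 1.42.0. The main test was limma 3.58.1 (R 4.3.3, eBayes with trend, two-sided) on log2(normalized count + 1) between genotypes, keeping genes that averaged 10 or more normalized reads; all 10 members passed. Low genes have understated fold changes on this scale. DESeq2 gave an adjusted p for 10668 genes. Replicates were numbered in accession order. GENCODE M21 gave positions, lengths and GC content. The members and gene lists were chosen with earlier results of these data known. Named were all members, of each list the called genes and the 2 with the smallest unadjusted p, and for 3 members the 3 most similar genes averaging 200 or more normalized reads. Some items are not reported here. Others named (Bmf, Hrk, Bcl2l10, Trp53, Spi1 and genes called by DESeq2) and the within-library ratios were chosen after values were seen. Of the fits, only the main limma one was tried on simulated counts.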

Additional observations from a re-analysis of the deposited data

How the results depend on the processing

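Under 16 alternatives no member was called, the lowest limma adjusted p being 0.162 (Mcl1, with sample weights). Of 160 member values, 153 kept their sign. For Bcl2a1b the log2 difference was 0.00024 with edgeR, and for Bak1 it was 0.034 after GC correction (a spline fitted in each library). With each library left out in turn, values ran from -0.27 to 0.15 for Bcl2a1b, -0.083 to 0.015 for Bak1, -0.17 to 0.091 for Bcl2l11 and -0.00465 to 0.20 for Pmaip1. The number of called genes, 63, became 97 and 98 with minimum means of 1 and 50 normalized reads, 30 with edgeR, 483 with DESeq2, 630 with sample weights and 21 after GC correction, and 11 to 501 with 1 library left out. Of the pathway lists, 6 genes were called with DESeq2 and 8 with sample weights, and 0 to 6 with 1 library left out. The cause of these shifts was not tested. After the data were seen, merged exon lengths, summed A1 copies and marker sums without their most abundant gene were added. No paired analysis was possible because the labels number no replicates across groups. With 3 libraries a group, intervals of the members reached from 0.596 to 1.29 times wildtype, with the precision differing from gene to gene.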
